A study of Danio rerio with 26 samples.

Results

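The genes described here are 10 ion-transport and cell-fate genes of ionocytes, the salt-transporting cells of fish skin and gill. The set was chosen by name, with earlier results of these data known. It held 5 tandem copies of the sodium pump alpha subunit (atp1a1a.1 to atp1a1a.5) and the sodium-chloride cotransporter slc12a10.2. It also held the sodium-bicarbonate cotransporter slc4a4b, the epithelial calcium channel trpv6, and the forkhead factors foxi3a and foxi3b. Of these 10 names, 8 were found among the 32105 genes of the count tables: atp1a1a.2 (ENSDARG00000007739), atp1a1a.3 (ENSDARG00000039131), atp1a1a.4 (ENSDARG00000001870), atp1a1a.5 (ENSDARG00000040252), slc12a10.2 (ENSDARG00000071173), trpv6 (ENSDARG00000014496), foxi3a (ENSDARG00000055926) and foxi3b (ENSDARG00000009550). No identifier carried the symbol atp1a1a.1 or slc4a4b. The name table gave SLC4A4 to 2 identifiers without saying which gene copy each is, so these are given under their identifiers and are not counted as members.

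The data came from RNA sequencing of the skin of 26 male zebrafish, 1 library per fish, all treated with rotenone, which blocks complex I of the mitochondrial respiratory chain. The groups were 8 fish aged 3 years at 37.5 nM rotenone, of strain AB JxTu Tg(flk:mCherry), a name that gives an mCherry transgene under flk, 9 fish aged 1 year at 37.5 nM, of strain AB JxTu, and 9 fish aged 1 year at 3.75 nM, also AB JxTu. Age therefore cannot be told apart from the strain label, concentration cannot be told apart from the count table that held each group, and no untreated fish gave a baseline. The labels do not say how long the fish were treated. The labels number the fish, and the numbers formed a low run (164 to 181, 4 fish in each group) and a high run (189 to 202, with 4 fish at 3 years, 5 at 1 year and 37.5 nM, and 5 at 1 year and 3.75 nM). What the numbers stand for is not given in the sources used here. Many genes differed between the runs, so the results on age and concentration are given over both runs and within each. Within each run the numbers of a group formed a block of their own, apart from those of the other groups. Age and concentration within a run, and their differences between the runs, therefore cannot be told apart from the fish number. Total counts per fish were 25606954 to 35162246 in the high run and 25454674 to 32660275 in the low run. Markers of skin keratinocytes were present in every library, with 18 marker genes summing to 25660 to 70887 CPM (read counts scaled to the library's size) per fish.

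Ionocytes are mitochondrion-rich cells that take up salt from fresh water. The sodium pump, an alpha and a beta subunit in the basolateral membrane, drives this uptake, and in zebrafish larvae different ionocyte types use different tandem copies of the alpha subunit. One zebrafish type, the NCC ionocyte, takes up sodium and chloride through slc12a10.2 and carries atp1a1a.2, slc4a4b and the chloride channel clcn2c. Another, the NaR ionocyte, takes up calcium through trpv6 and carries atp1a1a.1, and a further type, the HR ionocyte, secretes protons and carries atp1a1a.5. In zebrafish embryos foxi3a and foxi3b are required for ionocyte fate.

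All of these genes were rare transcripts in the skin. Expressed as CPM per kilobase of the gene length implied by the deposited values, atp1a1a.3 had the highest level of the 8, at 1.45 ± 0.84 (SD, n = 26 fish). It was followed by foxi3b at 1.03 ± 1.19, atp1a1a.2 at 0.760 ± 1.27, trpv6 at 0.512 ± 0.24, slc12a10.2 at 0.459 ± 0.68, foxi3a at 0.340 ± 0.18, atp1a1a.5 at 0.301 ± 0.15 and atp1a1a.4 at 0.245 ± 0.34. Neighbours in this order differed by less than the SD of both genes, except that the gap of 0.248 between atp1a1a.2 and trpv6 was less than the SD of atp1a1a.2 but not that of trpv6. The copies atp1a1a.1 to atp1a1a.5 lie on chromosome 1 in RefSeq's GRCz12tu gene order, and slc12a10.2, slc12a10.3 and slc12a10.1 on chromosome 7. Whether other genes lie between them was not checked. How reads that match more than 1 copy were counted is not given in the sources used here, so levels of single copies are uncertain to that extent.

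The pump copy atp1a1a.2, the cotransporter slc12a10.2 and the fate factor foxi3b were lower in fish of the high number run than in fish of the low run. The difference was 13.04-fold for atp1a1a.2, 13.08-fold for slc12a10.2 and 3.41-fold for foxi3b in a fit over all 26 fish with the group as a term (edgeR's quasi-likelihood test, Benjamini-Hochberg adjustment over 19784 genes). These were 3 of 8 members, all lower, and 0 members were higher. Of all genes tested in this comparison 14.3% passed, 7.54% lower and 6.73% higher. The members and the gene lists were chosen with earlier results of these data known. Shares called among them, here and below, therefore describe these genes and are no test against the share of all genes. In bulk skin, fewer cells of a type and less RNA per cell cannot be told apart.

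For atp1a1a.2, the 3-year fish had 0.113, 0.217, 0.278 and 0.852 CPM in the high run, against 2.90, 3.78, 6.54 and 10.4 CPM in the low run. At 1 year and 37.5 nM the values were 0.0780, 0.326, 0.418, 0.791 and 1.75 CPM in the high run, against 2.13, 2.52, 2.86 and 3.23 CPM in the low run. At 1 year and 3.75 nM they were 0.286, 0.374, 0.471, 0.513 and 0.726 CPM in the high run, against 7.15, 7.63, 16.9 and 30.5 CPM in the low run. Every high-numbered fish lay below every low-numbered fish, within each group and across all 3 groups. The log2 fold change was -3.71 ± 0.47 (SE; adjusted p = 8.1e-05), the 8th smallest p of the 19784 genes. The counts behind these values were 2 to 47 reads per fish in the high run and 59 to 792 in the low run. How many of all genes separated the runs without overlap was not counted, here or for slc12a10.2 and foxi3b below.

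slc12a10.2, which carries sodium and chloride across the apical membrane of NCC ionocytes, followed the same order. The 3-year fish had 0.0309, 0.119, 0.150 and 0.206 CPM in the high run, against 2.81, 4.35, 5.06 and 9.79 CPM in the low run. The 1-year fish at 37.5 nM had 0.190, 0.234, 0.395, 0.434 and 1.23 CPM in the high run, against 0.706, 1.51, 2.63 and 3.31 CPM in the low run. The 1-year fish at 3.75 nM had 0.0725, 0.385, 0.442, 0.918 and 0.953 CPM in the high run, against 3.16, 4.11, 14.7 and 15.0 CPM in the low run. The runs did not overlap at 3 years or at 3.75 nM, and at 1 year and 37.5 nM the highest fish of the high run lay within the range of the low run. The log2 fold change was -3.71 ± 0.50 (SE; adjusted p = 1.3e-04), and high-numbered fish had 1 to 33 reads, against 20 to 406 in low-numbered fish.

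foxi3b, the fate factor, had 0.398, 0.402, 0.413 and 0.705 CPM at 3 years in the high run, against 1.64, 1.83, 2.10 and 3.50 CPM in the low run. At 1 year and 37.5 nM it had 0.663, 0.760, 1.14, 1.19 and 1.58 CPM in the high run, against 0.636, 1.36, 1.38 and 1.95 CPM in the low run. At 1 year and 3.75 nM it had 0.435, 0.572, 0.782, 1.28 and 1.49 CPM in the high run, against 1.93, 3.73, 8.32 and 9.27 CPM in the low run. The runs did not overlap at 3 years or at 3.75 nM, and overlapped at 1 year and 37.5 nM. Over all fish the log2 fold change was -1.77 ± 0.34 (SE; adjusted p = 0.00223).

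**Figure D1:**
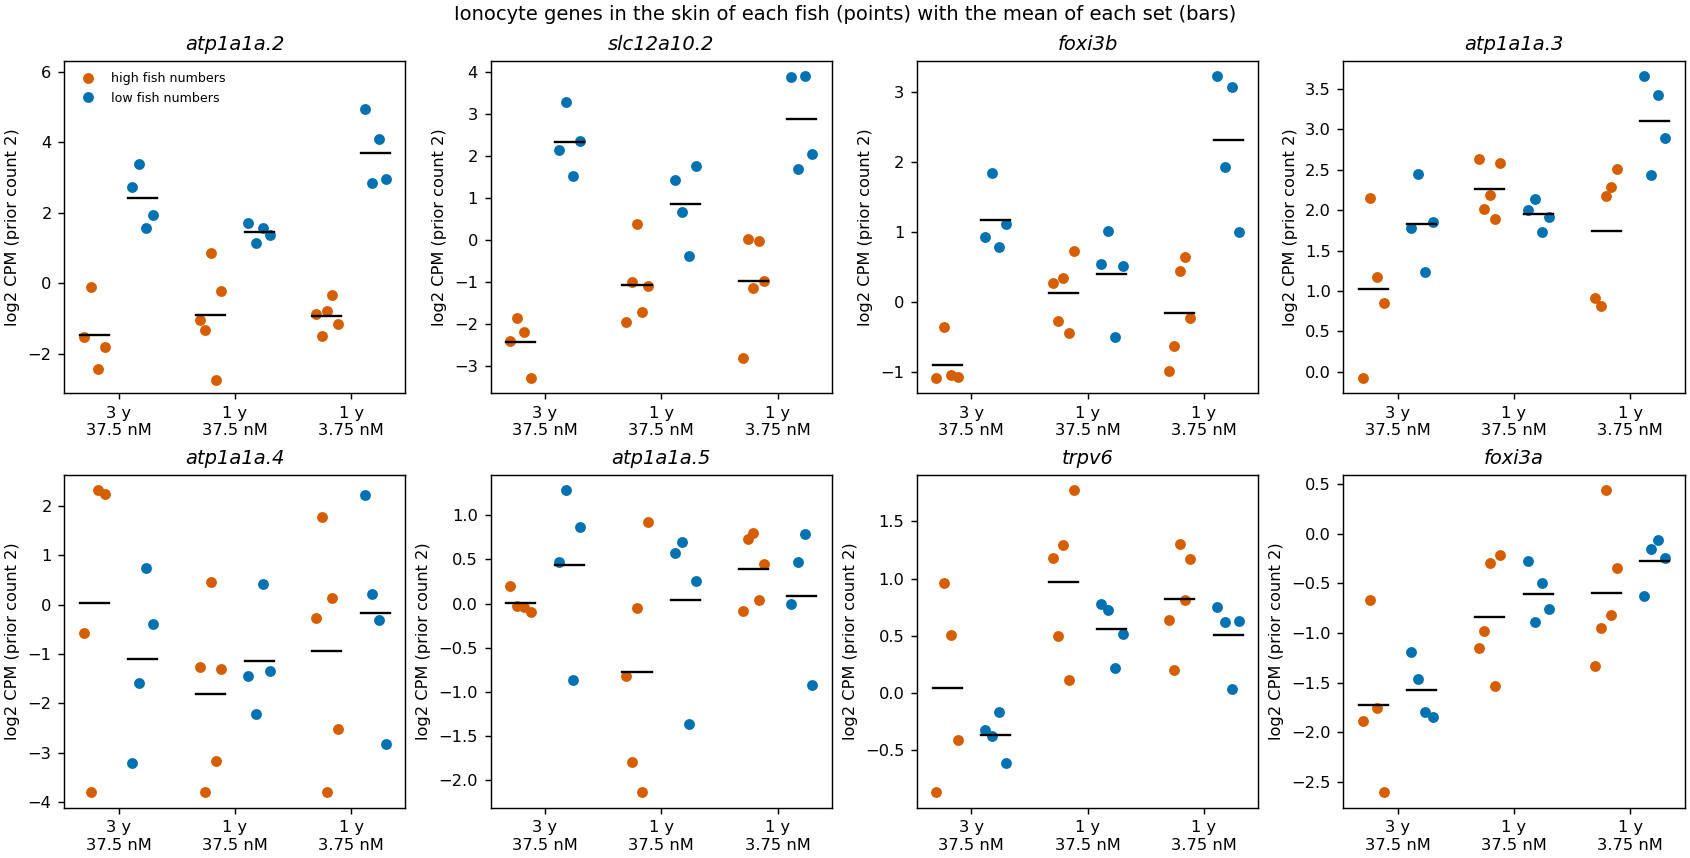
Log2 CPM (prior count of 2) of the 8 genes in each of the 26 fish, 1 panel per gene, with groups along the x axis and high-numbered fish left of low-numbered fish in each group; bars are means. The points of atp1a1a.2 in the high run lie below those in the low run in all 3 groups, while trpv6, foxi3a and atp1a1a.5 overlap between the runs in each group.

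The other 5 members did not pass the test between the runs. trpv6 had a log2 fold change of 0.50 ± 0.20 (SE; adjusted p = 0.100 by edgeR) and passed, at 0.57 (adjusted p = 0.0457), when 3-year replicate 5 was left out. atp1a1a.3 had -0.55 ± 0.26 (adjusted p = 0.163), atp1a1a.5 -0.33 ± 0.33 (0.528), foxi3a -0.15 ± 0.24 (0.726) and atp1a1a.4 0.28 ± 0.81 (0.852). Over the 8 members the median log2 fold change was -0.44, against 0.02 over all genes tested. The high-numbered fish had 0.875 to 6.12 CPM of atp1a1a.3, another pump copy, against 2.29 to 12.54 CPM in the low-numbered fish, with wide overlap. atp1a1a.5, the copy of HR ionocytes, averaged 1.21 ± 0.60 CPM at 3 years, 0.887 ± 0.62 CPM at 1 year and 37.5 nM, and 1.19 ± 0.42 CPM at 1 year and 3.75 nM (SD, n = 8, 9 and 9), and its fish overlapped between the runs in each group.

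The fold changes of atp1a1a.2 and slc12a10.2 were negative in each group taken alone, and passed the test in 1 of the 3. Within the 1-year fish at 3.75 nM, where 8.24% of genes passed and 5.36% were lower, 3 of 8 members were lower: atp1a1a.2 with a log2 fold change of -5.04 ± 0.51 (SE; adjusted p = 0.00414), slc12a10.2 with -4.04 ± 0.72 (0.0153) and foxi3b with -2.68 ± 0.53 (0.0182). Within the 1-year fish at 37.5 nM, where 7.94% of genes passed, edgeR called 0 of 7 members. An unadjusted p under 0.05 was found for 2 members and for 29% of genes. Their values were -1.96 ± 0.61 for atp1a1a.2 (adjusted p = 0.0708) and -2.01 ± 0.59 for slc12a10.2 (0.0638), and foxi3b had -0.30 ± 0.37 (0.623). Within the 3-year fish edgeR called 0 of 19031 genes and 0 of 7 members. An unadjusted p under 0.05 was found for 2204 genes (11.6%) and 3 members. There slc12a10.2 had -5.40 ± 0.60 (adjusted p = 0.0910), atp1a1a.2 -3.99 ± 0.68 (0.208) and foxi3b -2.23 ± 0.37 (0.199).

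Markers of other cell types were read beside these values. Keratinocyte markers summed to 30103 to 70887 CPM in the high run and 25660 to 64917 CPM in the low run; of 17 tested, 2 were lower in the high run, krt4 (log2 fold change -0.63 ± 0.17, SE; adjusted p = 0.0169) and krt17 (-1.57 ± 0.20, 8.1e-05). Mucous cell markers summed to 513 to 1325 CPM in the high run and 326 to 1035 CPM in the low run, with 0 of 9 called by edgeR. Of 5 kidney markers tested 1 was higher in the high run, NPHS1 (0.92 ± 0.20, 0.00465), and of 6 erythrocyte markers 1 was higher. Skeletal muscle markers summed to 3088 to 29920 CPM in the high run and 3623 to 55378 CPM in the low run, with 0 of 18 called. With the mean of the muscle list as a term, atp1a1a.2 had -3.53, slc12a10.2 -3.49 and foxi3b -1.56, all 3 still called. No marker on these lists was at 0 in every fish. Of the called markers, krt4 and krt17 moved the same way as the called members. NPHS1 and the erythrocyte marker moved the opposite way. The part of these called markers in the members' values was not tested.

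Other genes that zebrafish ionocytes use were taken from 5 lists. Of 13 genes tested for chloride, bicarbonate and potassium transport, 3 were higher and 1 was lower in the high run. The lower one was clcn2c, the chloride channel of NCC ionocytes, with a log2 fold change of -3.01 ± 0.67 (SE; adjusted p = 0.00539). It ranged from 0 to 4.61 CPM (median 0.109) in the high run, against 0.247 to 10.15 CPM (median 2.17) in the low run, and overlapped. In its single fish at 0 reads the depth allows a level of up to 0.105 CPM. The related channel clcn2b was higher, by 1.76 ± 0.37 (0.00374), as were the anion exchanger SLC26A4, by 1.8 ± 0.47 (0.0137), and SLC4A4 (ENSDARG00000044808), by 0.99 ± 0.29 (0.0256). The last was not called when 1-year 3.75 nM replicate 7 was left out (0.81, adjusted p = 0.0587). The other SLC4A4 identifier (ENSDARG00000013730) had 0.84 ± 0.34 (0.102). Which of these, if either, is slc4a4b, also carried by NCC ionocytes, is not known. Both had fold changes opposite in sign to those of atp1a1a.2, slc12a10.2 and clcn2c.

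Of 18 further sodium pump genes tested, 3 (16.7%) were higher in the high run and 0 lower, a share near the 14.3% of all genes called in this comparison. They were the alpha subunit atp1a3b, by 1.1 ± 0.30 (SE; adjusted p = 0.0160), the pump regulator fxyd5, by 0.85 ± 0.22 (0.0134), and the beta subunit ATP1B1 (ENSDARG00000013144), by 0.44 ± 0.15 (0.0431), which passed in 8 of 26 fits that left out a fish. The other ATP1B1 identifier (ENSDARG00000076833) had -0.46 ± 0.47 (adjusted p = 0.547 by edgeR). Of 22 proton-secretion genes, 1 was higher and 3 were lower. The ammonia channel RHBG (-0.88 ± 0.22, 0.0111) and 1 identifier of the proton pump subunit ATP6V1A (ENSDARG00000076318, -0.45 ± 0.11, 0.00782) fell. The other ATP6V1A identifier (ENSDARG00000034534) was not called, at -0.12 ± 0.10 (adjusted p = 0.459 by edgeR). The carbonic anhydrase ca2 (-0.63 ± 0.33, 0.204), slc9a3.2 (0.41 ± 0.23, 0.235) and the HR ionocyte factor GCM2 (-0.11 ± 0.29, 0.842) did not pass.

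Of 22 calcium genes, 1 was higher and 1 was lower. The lower one, the calcium-lowering hormone gene STC1 (ENSDARG00000058476), rested on 1 fish: its log2 fold change of -4.43 ± 1.28 (SE; adjusted p = 0.0245) became -1.70 (0.181) without 1-year 3.75 nM replicate 1, which had 222.8 CPM. Of 25 genes for ionocyte fate and its hormone receptors, 3 were higher and 2 were lower. The list's Notch ligand dld was matched, ignoring case, to the symbol DLD (ENSDARG00000008785). Whether this identifier is the Notch ligand was not checked. It was not called (-0.21 ± 0.14, edgeR adjusted p = 0.325) but enters the shares and medians of this list. PRLR, the receptor of prolactin, a hormone that raises slc12a10.2 in zebrafish, fell (-1.28 ± 0.32, 0.0115), with 0.428 to 7.21 CPM (median 1.73) in the high run and 2.90 to 9.70 CPM (median 4.61) in the low run. The Notch ligand jag1a fell (-0.72 ± 0.16, 0.00631), and the basal keratinocyte factor TP63 rose (0.47 ± 0.14, 0.0257). The shares called were 30.8% for chloride, bicarbonate and potassium transport, 20% for fate, 18.2% for proton secretion and 9.09% for calcium, against 14.3% of all genes. On all 5 lists except chloride, bicarbonate and potassium transport, where it was 0.69, the median log2 fold change lay between -0.04 and 0.13.

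**Figure D2:**
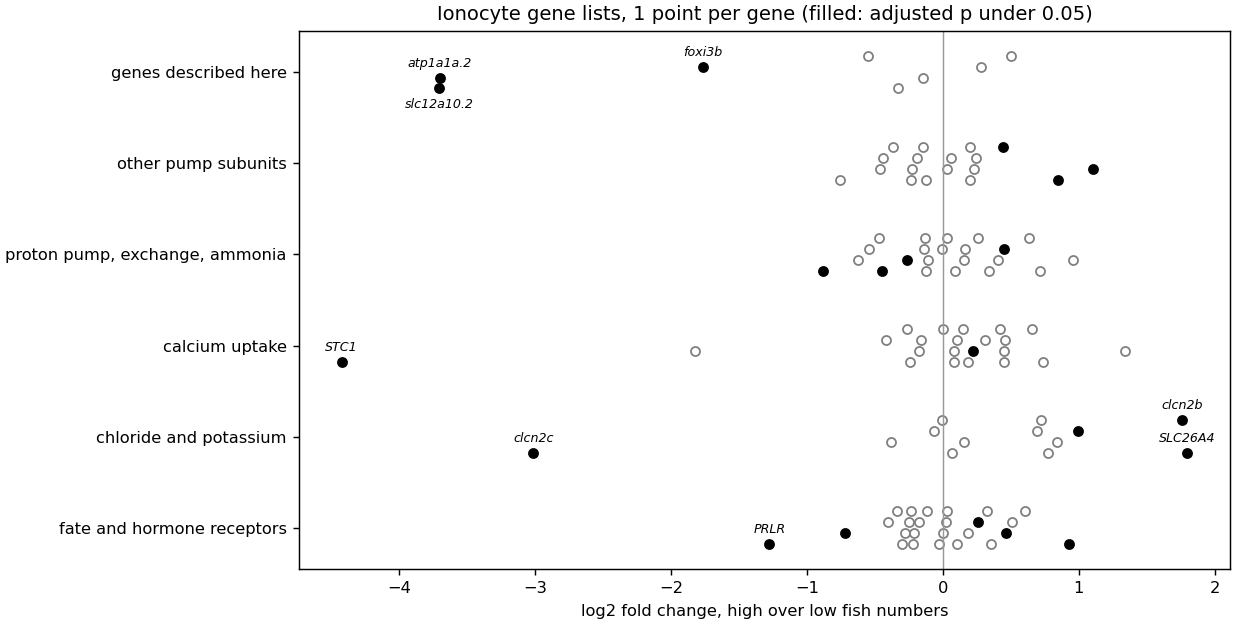
Log2 fold change of the high over the low number run (x axis) for the members and the genes of 5 ionocyte lists, 1 point per gene tested, filled where the adjusted p was under 0.05. The points of atp1a1a.2 and slc12a10.2 at -3.71 and of clcn2c at -3.01 lie apart from the other genes, except STC1 at -4.43, which rested on 1 fish.

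The comparison of 3-year with 1-year fish at 37.5 nM asks how skin expression differs with age at that concentration. None of the members tested passed: edgeR called 0 of 7, where 1.27% of 18935 genes passed. An unadjusted p under 0.05 was found for 2 members and for 20.4% of genes, and DESeq2, which called 5.68% of genes, called those 2 members. They were trpv6 and foxi3a, both lower at 3 years. The calcium channel trpv6 had 0.477 to 1.88 CPM (median 0.715) at 3 years and 1.01 to 3.35 CPM (median 1.59) at 1 year. Of the 8 fish aged 3 years, 7 lay below the 1-year median, and the groups overlapped through 3-year replicate 6, at 1.88 CPM, and others. Its log2 fold change was -0.97 ± 0.30 (SE; adjusted p = 0.107 by edgeR and 0.0402 by DESeq2), or -1.21 (0.0338 by edgeR) without 3-year replicate 6. foxi3a had 0.0928 to 0.558 CPM (median 0.221) at 3 years and 0.273 to 0.791 CPM (median 0.519) at 1 year, again with 7 of 8 fish below the 1-year median. Its log2 fold change was -1.03 ± 0.30 (adjusted p = 0.0938 by edgeR and 0.0472 by DESeq2), or -1.27 (0.0281 by edgeR) without 3-year replicate 6. foxi3a had 3 to 26 reads per fish in these 17 libraries, so single values carry a wide counting error.

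Both genes had a similar age difference in each number run, although neither passed in the smaller fits. For trpv6 the log2 fold change was -0.91 ± 0.47 (SE) in the high run and -0.98 ± 0.27 in the low run. In the low run the 3-year fish had 0.585, 0.699, 0.730 and 0.822 CPM and the 1-year fish 1.09, 1.36, 1.59 and 1.65 CPM, without overlap. For foxi3a it was -0.96 ± 0.53 in the high run and -1.11 ± 0.34 in the low run, where the 3-year fish had 0.206, 0.216, 0.291 and 0.365 CPM and the 1-year fish 0.469, 0.519, 0.636 and 0.757 CPM, again without overlap. In these fits edgeR called 0 of 7 members in either run, where 0.0995% of genes passed in the high run and 0.179% in the low run. In the high run an unadjusted p under 0.05 was found for 2 members, foxi3b and atp1a1a.3, and for 16.9% of genes. There trpv6 (unadjusted p = 0.0816 by edgeR) and foxi3a (0.0995) were not among them. In the low run it was found for 4 members, trpv6, foxi3a, atp1a1a.2 and slc12a10.2, and for 18.9% of genes. How many of all genes had no overlap between the ages in the low run was not counted.

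For the genes that separated the runs, the age values depended on the run. Over both runs slc12a10.2 had a log2 fold change of 1.25 ± 0.87 (SE; adjusted p = 0.420), atp1a1a.2 of 1.01 ± 0.78 (0.478) and foxi3b of 0.21 ± 0.42 (0.805). For atp1a1a.2 the value was -0.87 ± 0.80 in the high run and 1.15 ± 0.39 in the low run, and for foxi3b it was -1.15 ± 0.35 in the high run and 0.78 ± 0.39 in the low run. slc12a10.2 had too few reads to be tested for age in the high run and had 1.44 ± 0.52 in the low run. A test of the difference between the runs called 0 of 8 members and 0 of 19958 genes by edgeR; 3274 genes (16.4%) and 3 members had an unadjusted p under 0.05. The interaction was -3.37 ± 0.89 for slc12a10.2 (adjusted p = 0.118), -1.92 ± 0.52 for foxi3b (0.123) and -2.0 ± 0.94 for atp1a1a.2 (0.302). Of the remaining members, atp1a1a.3 had an age difference of -0.56 ± 0.27 (0.252) and atp1a1a.5 of 0.44 ± 0.44 (0.595), and atp1a1a.4 had too few reads to be tested. None of the 17 pump, 22 proton, 19 calcium, 12 chloride and 25 fate genes tested passed between ages by edgeR. Muscle markers summed to 5049 to 55378 CPM at 3 years and 3088 to 22665 CPM at 1 year, with 0 of 16 called and a median log2 fold change of 1.17. Of the other markers, 1 of 17 for keratinocytes was higher at 3 years, 1 of 7 for mucous cells and 1 of 4 for kidney were lower, and edgeR called 0 of 6 for erythrocytes, all 6 of which had positive fold changes. In a fit with the mean of the muscle list as a term, the age value of foxi3b turned negative. The part of the other markers in the members' age values was not tested.

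**Figure D3:**
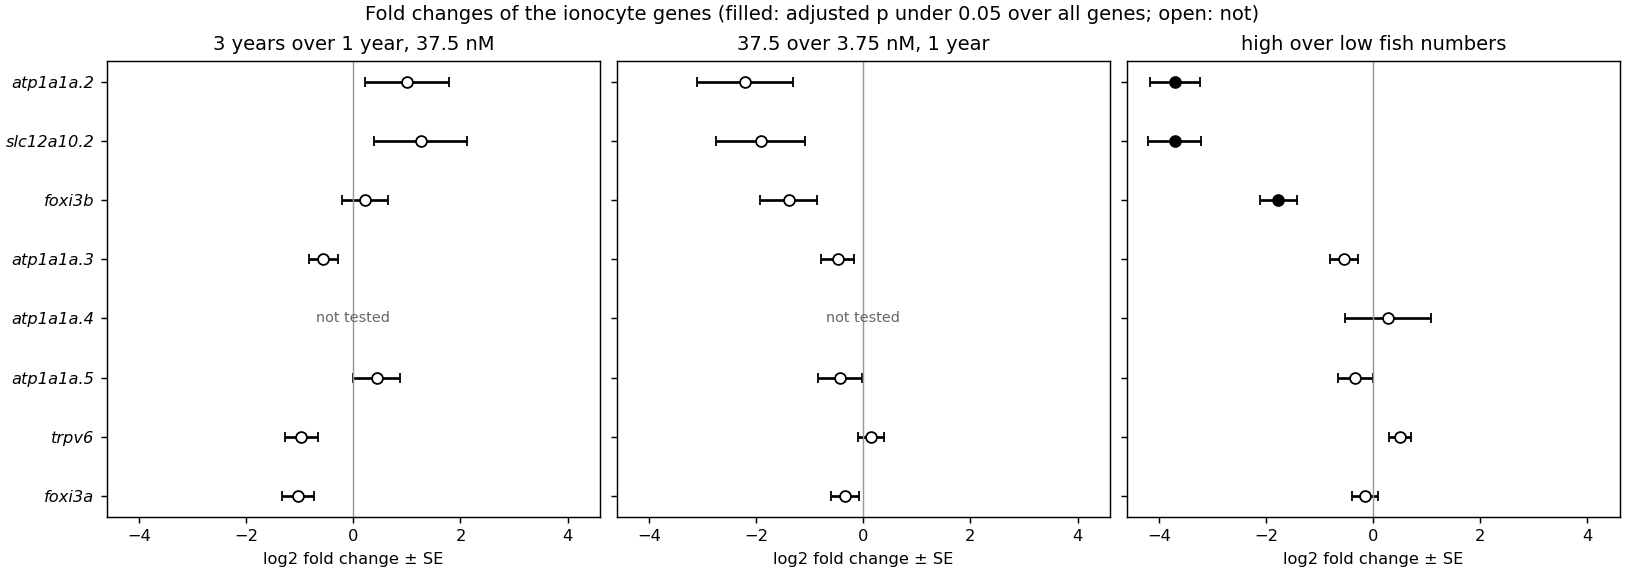
Log2 fold change with its SE (x axis) of each member in 3 comparisons, 3 years over 1 year, 37.5 nM over 3.75 nM and high over low number run; filled points had an adjusted p under 0.05. The 3 filled points are atp1a1a.2, slc12a10.2 and foxi3b in the number run.

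Among 1-year fish, the comparison of 37.5 nM with 3.75 nM rotenone asks which transcripts differ with the concentration. Over both runs edgeR called 0 of 7 members, where 4.28% of 18793 genes passed, and DESeq2, which called 9.91% of genes, also called 0 members. An unadjusted p under 0.05 was found for 3 members and for 22.9% of genes. These 3 members were atp1a1a.2, with a log2 fold change of -2.21 ± 0.89 (SE; adjusted p = 0.143), slc12a10.2, with -1.92 ± 0.83 (0.171), and foxi3b, with -1.39 ± 0.53 (0.126). The ranges show how uneven the fish were: atp1a1a.2 had 0.0780 to 3.23 CPM (median 1.75) at 37.5 nM and 0.286 to 30.5 CPM (median 0.726) at 3.75 nM, so the median was higher at 37.5 nM while the fitted mean was lower. atp1a1a.3 had -0.48 ± 0.31 (0.384), atp1a1a.5 -0.44 ± 0.41 (0.559), foxi3a -0.35 ± 0.26 (0.456) and trpv6 0.14 ± 0.24 (0.774).

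Within the low run, 4 of 8 members were lower at 37.5 nM, in a comparison where 26.7% of genes passed and 13.8% were lower. atp1a1a.2 had 2.13, 2.52, 2.86 and 3.23 CPM at 37.5 nM, against 7.15, 7.63, 16.9 and 30.5 CPM at 3.75 nM, a log2 fold change of -2.55 ± 0.48 (SE; adjusted p = 0.00531 by edgeR). atp1a1a.3 had 3.25, 3.71, 3.95 and 4.33 CPM at 37.5 nM, against 5.34, 7.35, 10.6 and 12.54 CPM at 3.75 nM, with -1.26 ± 0.27 (0.00874). Neither pump copy overlapped between the concentrations in these fish, and how many of all genes did the same was not counted. foxi3b had 0.636, 1.36, 1.38 and 1.95 CPM at 37.5 nM, against 1.93, 3.73, 8.32 and 9.27 CPM at 3.75 nM, with -2.15 ± 0.53 (0.0179). slc12a10.2 had 0.706, 1.51, 2.63 and 3.31 CPM at 37.5 nM, against 3.16, 4.11, 14.7 and 15.0 CPM at 3.75 nM, with -2.20 ± 0.64 (0.0349). These 2 genes overlapped only where the highest fish at 37.5 nM met the lowest at 3.75 nM, and for all 4 genes each of the 4 fish at 37.5 nM lay below the 3.75 nM median. The calls of atp1a1a.2, atp1a1a.3 and foxi3b held in all 8 fits that left out a fish. That of slc12a10.2 held in 3 of 8; it was lost without replicate 1, 2 or 3 at 37.5 nM and without replicate 1 or 3 at 3.75 nM, where the adjusted p reached 0.0905. In these low-numbered fish keratinocyte markers summed to 34463 to 53184 CPM at 37.5 nM and 50371 to 64917 CPM at 3.75 nM, and muscle markers to 3623 to 8946 CPM at 37.5 nM and 7549 to 34526 CPM at 3.75 nM; their part in the members' values was not tested.

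Within the high run, edgeR called 0 of 18929 genes between the concentrations. An unadjusted p under 0.05 was found for 995 genes (5.26%), and none of the 7 members tested was among them. atp1a1a.2 had a log2 fold change of 0.48 ± 0.63 (SE), atp1a1a.3 of 0.37 ± 0.35, foxi3b of 0.20 ± 0.39 and slc12a10.2 of -0.21 ± 0.66. The difference between the runs was itself tested, in a comparison where 5.71% of 19952 genes passed and 3.31% were higher. It passed for 2 of 8 members, atp1a1a.2 at 3.05 ± 0.83 (adjusted p = 0.0397) and foxi3b at 2.36 ± 0.67 (0.0483), but not for atp1a1a.3 at 1.64 ± 0.48 (0.0538) or slc12a10.2 at 2.01 ± 0.97 (0.249). Both calls were close to the threshold. Without 1 fish at a time, atp1a1a.2 passed in 8 of 18 fits (adjusted p from 0.0211 to 0.0927) and foxi3b in 3 of 18 (0.0261 to 0.112), with values of 2.34 to 3.33 and 2.04 to 2.64. For atp1a1a.2 the fish whose removal ended the call were replicates 1, 2, 3, 4, 7 and 9 at 37.5 nM and replicates 1, 3, 6 and 9 at 3.75 nM. For foxi3b the call was kept only without replicate 4, 7 or 8 at 3.75 nM. The keratins krt4, at 1.15 ± 0.22 (0.00856), and krt17, at 1.46 ± 0.34 (0.0196), had interactions of the same sign, as 2 of 17 keratinocyte markers. Of 9 mucous cell markers 1 was called, also positive, and of 17 muscle markers edgeR called 0, with 15 positive. The part of these markers was not tested.

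**Figure D4:**
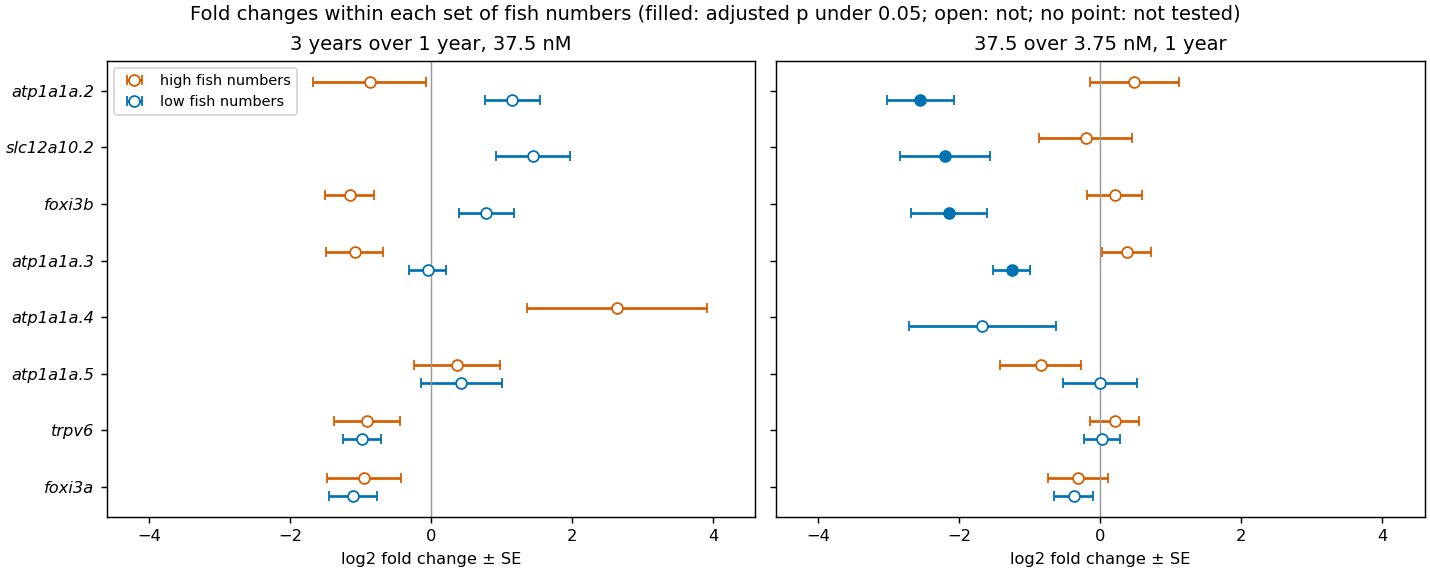
Log2 fold changes with their SE (x axis) of the members for age and for concentration, fitted within the high and within the low number run; filled points had an adjusted p under 0.05. The 4 filled points are atp1a1a.2, atp1a1a.3, foxi3b and slc12a10.2 for concentration in the low run, all below 0, while their points in the high run lie between -0.21 and 0.48.

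Of 16 further sodium pump genes tested for concentration over both runs, 2 were lower at 37.5 nM and 0 higher. The beta subunit atp1b3b was among them, with a log2 fold change of -0.52 ± 0.12 (SE; adjusted p = 0.0310 by edgeR over 18793 genes), and was called in 9 of 18 fits that left out a fish. Of 20 calcium genes and 25 fate genes 1 each was lower, STC1 (ENSDARG00000058476), which again rested on 1-year 3.75 nM replicate 1 (0.13 without it), and KLF4, at -1.0 ± 0.24 (0.0342), called in 8 of 18 fits. edgeR called 0 of 21 proton and 0 of 12 chloride genes.

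The members also varied together from fish to fish, and the runs were kept apart here because several genes form separate clusters by run. Pearson's r and Spearman's rho were computed on log2 CPM with group means removed, with permutation tests (two-sided) adjusted over the 28 pairs of members in each run. In the low run (12 fish) 6 pairs passed, all positive, and 4 of them held atp1a1a.2 or slc12a10.2. atp1a1a.2 and atp1a1a.3 had r = 0.857 (p = 0.0006, adjusted 0.00896) and rho = 0.790 (p = 0.00319, adjusted 0.0223), and r = 0.716 without the 2 fish farthest from the median of the first gene. atp1a1a.3 and slc12a10.2 had r = 0.833 (p = 0.00064, adjusted 0.00896) and rho = 0.846 (p = 0.00096, adjusted 0.00896), and r = 0.763 without such fish. slc12a10.2 and foxi3b had r = 0.818 (p = 0.00121, adjusted 0.0113) and rho = 0.881 (p = 0.00038, adjusted 0.00532), and r = 0.793 without them. The 3 other pairs had r of 0.758 (atp1a1a.3 with foxi3b, adjusted p = 0.0344), 0.737 (atp1a1a.5 with foxi3b, 0.0366) and 0.735 (atp1a1a.2 with slc12a10.2, 0.0366), and rho of 0.902 (adjusted p = 0.0042), 0.685 (0.0679) and 0.741 (0.0442) in that order. Since the tandem copies may share reads, a positive r between them need not be separate measurements.

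In the high run (14 fish) 5 pairs passed, and 3 of them held trpv6. atp1a1a.3 and trpv6 had r = 0.812 (permutation p = 0.00046, adjusted 0.0129) and rho = 0.815 (p = 0.00076, adjusted 0.0168), and r = 0.689 without the 2 fish farthest from the median of the first gene. trpv6 and foxi3a had r = 0.771 (p = 0.00137, adjusted 0.0192) and rho = 0.767 (p = 0.00197, adjusted 0.0184), and r = 0.808 without such fish. The pairs atp1a1a.3 with foxi3b, foxi3a with foxi3b and trpv6 with foxi3b had r of 0.740 (adjusted p = 0.025), 0.711 (0.034) and 0.686 (0.0449), and rho of 0.798 (0.0168), 0.675 (0.0441) and 0.732 (0.0271) in that order. The pair atp1a1a.3 and foxi3b passed in both runs. No pair with atp1a1a.2 or slc12a10.2 passed in the high run by Pearson's r, where these genes had at most 47 reads per fish; atp1a1a.2 and foxi3b had r = 0.636 (adjusted p = 0.0600) and rho = 0.688 (adjusted p = 0.0441).

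The search for like patterns over the 26 fish covered 19776 genes and left out the members. The gene most like slc12a10.2 was clcn2c, with r = 0.937 after removal of group means and 0.828 after removal of the run means as well. Outside the members, the pattern most like atp1a1a.2 was that of krt17 (0.884, and 0.403 with run means removed). The member slc12a10.2 was closer to atp1a1a.2 (0.912 and 0.549). The non-member pattern most like foxi3b was that of trim35-12 (0.888 and 0.627). Among the non-member genes clcn2c, krt17 and trim35-12, removing the run means lowered r most for krt17 with atp1a1a.2. For trpv6 the nearest was ahcyl2a (0.749 and 0.852), for foxi3a cldn3c, a claudin (0.719 and 0.777), and GCM2 among the 3 nearest (0.682 and 0.687), for atp1a1a.3 ceacam1 (0.834 and 0.768), and for atp1a1a.5 ARHGEF7 (0.635 and 0.669). These values describe likeness over fish that share libraries and carry no test.

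**Figure D5:**
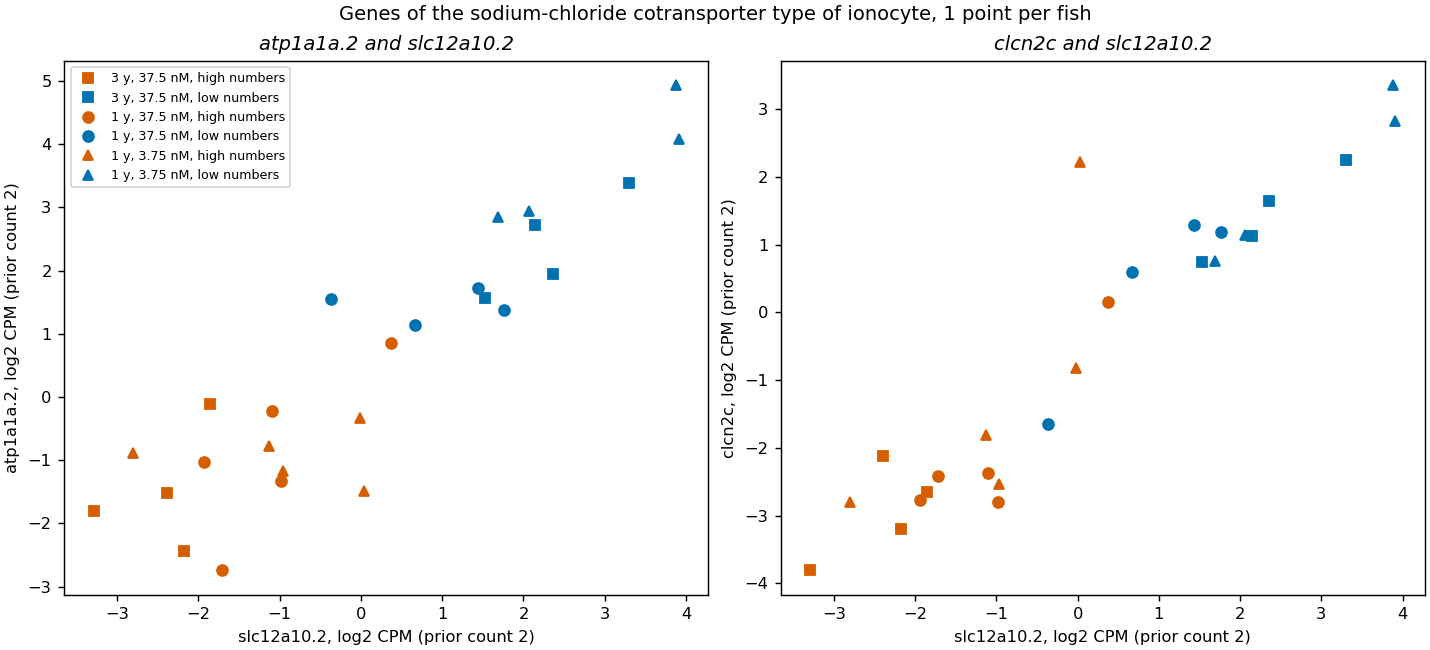
Log2 CPM of atp1a1a.2 against slc12a10.2 and of clcn2c against slc12a10.2, 1 point per fish, coloured by number run with the marker shape giving the group. In the panel with atp1a1a.2 the high-numbered fish lie at the lower left and the low-numbered fish at the upper right, while in the panel with clcn2c the runs overlap, with 1 high-numbered fish at 4.61 CPM and 1 low-numbered fish at 0.247 CPM of clcn2c.

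atp1a1a.4 stood apart from the other members. It had 0, 0.597, 4.64 and 4.92 CPM in 3-year fish of the high run, against 0.0365, 0.262, 0.688 and 1.60 CPM in those of the low run. The 1-year fish ranged from 0 to 4.58 CPM. It was at 0 reads in 3 of the 26 fish, where up to 0.0853 to 0.115 CPM would be allowed by the depth. Neither age nor run separated its values. The genes most like it were CDH17, a cadherin of the zebrafish kidney tubule (r = 0.851), and fxyd2, a pump regulator known from the mammalian kidney (r = 0.844). The 3 fish with the most atp1a1a.4, 3-year replicates 7 and 8 and 1-year 3.75 nM replicate 1, had 4.92, 4.64 and 4.58 CPM of it, 7.35, 2.13 and 6.27 CPM of CDH17, and 1.24, 0.928 and 2.81 CPM of fxyd2. Of the defining kidney markers, SLC12A1 had reads in 12 of 26 fish, at most 0.923 CPM, and SLC12A3 in 20, at most 1.76 CPM. CDH17 had reads in all 26, from 0.0362 to 7.35 CPM, as did NPHS1, from 0.562 to 3.05 CPM. Of the 11 identifiers on the kidney list, 2 named SLC20A1 had 119.8 to 578.6 and 20.2 to 101.3 CPM per fish, and the other 9 reached at most 7.35 CPM each. The part of the kidney markers in the atp1a1a.4 values was not tested.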

How the data were processed

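RNA was taken from the skin of 26 fish, and libraries were made with Illumina's TruSeq v2 RNA kit, per the labels' protocols. This kit does not mark strand. The tools named were featureCounts 1.4.6-p4, STAR 2.4.1d and CASAVA 1.8.2, with the build GRCz10, per the submitters' processing notes. The deposited count tables, 1 for each concentration, hold whole-number reads per Ensembl gene with no normalization by the authors. The authors' RPKM tables do not follow the libraries' own totals, so RPKM served only to derive gene lengths, from the ratio of count to RPKM.

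Symbols came from a table of gene names. The members and the gene lists were chosen with earlier results of these data known. Tests ran over all genes in edgeR 4.0.16 (R 4.3.3), with TMM scaling, filterByExpr, the robust quasi-likelihood fit and Benjamini-Hochberg adjustment; calls needed an adjusted p under 0.05. The SE is the log2 fold change over the square root of F. CPM were scaled over all 26 fish, and log2 CPM used a prior count of 2. Correlations used 100000 permutations with scipy 1.17.1, free across groups and with no allowance for the means removed. All p-values reflect variation from fish to fish. Limits at 0 reads take 3 counts and cover counting error only. The procedure was tested on simulated data.

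Named genes were the members and up to 4 genes per ionocyte list and comparison that passed (smallest p first). With them came 17 transport and fate genes named by the rule, and the 3 non-member genes most like each member. The text gives some of these. krt4 and krt17 are the keratinocyte markers that passed. Alternatives were RLE scaling, no filter, DESeq2 1.42.0, the muscle list or the number run as a term, each run or group alone, and each fish left out. Leaving out fish from the test of concentration by run, and from the low run alone, was chosen after seeing the data. Some genes of the lists are counted but not reported here by name.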

Additional observations from a re-analysis of the deposited data

Results flagged for a closer look

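The concentration difference of atp1a1a.2 differed between the number runs in a test of the difference itself. Its log2 fold change of 37.5 nM over 3.75 nM was 0.48 ± 0.63 (SE) in the high run and -2.55 ± 0.48 in the low run, an interaction of 3.05 ± 0.83 (edgeR, adjusted p = 0.0397; n = 9 fish at each concentration). All 4 low-numbered fish at 37.5 nM were below all 4 low-numbered fish at 3.75 nM. How many of all genes did the same was not counted. In the high run atp1a1a.2 had 2 to 47 reads per fish over the 3 groups. A fall there was therefore not detectable at this depth unless large. The cause of the difference between the runs was not tested.

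The same test passed for foxi3b, with 0.20 ± 0.39 in the high run and -2.15 ± 0.53 in the low run, an interaction of 2.36 ± 0.67 (edgeR, adjusted p = 0.0483). Its fish overlapped in both runs. Each of these 2 calls was lost in most fits that left out 1 fish. No fish stood out from its group in the 24 combinations of member and group, a check that flags about 1 in 20 by chance. The check took both number runs of a group together. Where a gene differed between the runs, it could miss a fish that stood out within its run.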

How the results depend on the processing

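No paired analysis was possible because each fish number belongs to 1 fish and no replicate number is shared in the labels. RLE scaling changed no member's direction or call in any comparison. Between ages, 0 members and 241 genes were called; DESeq2 called 2 members and 1076 genes (5.68%), and genes called were 398 with the run as a term, 19 in the high run and 34 in the low run. foxi3b turned negative between ages with the muscle term (-0.25), the run term (-0.17) and in the high run (-1.15), as did atp1a1a.2 in the high run (-0.87). Between concentrations, 804 genes were called, against 209 without a filter, 1862 by DESeq2, 21 with the muscle term, 1396 with the run term, 0 in the high run and 5024 (4 members) in the low run. In the high run atp1a1a.2 (0.48), atp1a1a.3 (0.37) and foxi3b (0.20) turned positive. Between runs, 2823 genes and 3 members were called, against 1581 and 3 at 3.75 nM alone, 1513 and 0 at 1 year and 37.5 nM alone, and 0 and 0 at 3 years alone; atp1a1a.4 (-0.59) and atp1a1a.5 (0.23) at 3.75 nM and atp1a1a.3 (0.36) at 1 year and 37.5 nM turned round. Concentration by run called 1 member without a filter, where foxi3b had 2.37 (adjusted p = 0.0597). Of the 28 relations, 8 passed with group means removed and 14 with run means removed too. The cause of these shifts was not tested, except that single runs and groups hold fewer fish.

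Leaving out 1 fish gave 64 to 712 genes and 0 to 2 members between ages (foxi3b -0.14 to 0.35), 0 to 1661 genes and 0 members between concentrations (trpv6 -0.026 to 0.23), 2023 to 3662 genes and 3 to 4 members between runs (atp1a1a.4 -0.026 to 0.81), and 0 to 3 members for concentration by run. High-numbered fish had as few as 1 read of slc12a10.2 and 2 of atp1a1a.2, so differences among them were not detectable at this depth unless large.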
